A study of Homo sapiens with 6 samples.

Results

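The guanylate-binding proteins GBP1, GBP2, GBP3, GBP4 and GBP5 were followed in the BRCA1-deficient human ovarian carcinoma line UWB1.289 after silencing of the histone acetyltransferase HBO1. All probes annotated to these 5 genes were taken: 6 of the 47316 probes of an Illumina bead array, with 2 probes for GBP1 and 1 for each other gene. The family had been singled out because probes of GBP1 and GBP5 differed between the groups in these same arrays, so the differences given for the 5 genes are descriptions and carry no test. The siHBO1 group was 3 arrays of cells transfected with a small interfering RNA (siRNA) against HBO1, and the siCTRL group was 3 arrays of cells transfected with a scrambled siRNA. RNA of both groups was collected 48 h after transfection, and neither group is described as having had any other treatment. All arrays came from a single cell line, neither the siRNA sequences nor the slides are given in the sources used, and the labels do not say whether replicates were separate cultures. P-values therefore reflect the scatter among these 6 arrays alone, part or all of which may be technical.

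Guanylate-binding proteins are large GTPases of the dynamin superfamily and are among the genes most strongly induced by interferon-gamma. Interferon receptors signal through JAK kinases to STAT and IRF transcription factors, which bind gamma-activated sites (GAS) and interferon-stimulated response elements (ISRE) in the promoters of these genes. The proteins assemble in a GTP-dependent way on intracellular bacteria, parasite vacuoles and membranes, and several are anchored to membranes by a prenyl group. In epithelial and tumour cells, GBP1 is commonly measured as an interferon-induced gene.

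In the RefSeq table of 300-base promoter windows (assembly GRCh38.p14, from 250 bases before to 50 bases from the annotated start), 3 of the 5 genes had an entry: GBP1, GBP3 and GBP4. Their windows are shown because all 3 held a match to the ISRE core, while the measured differences of the 3 genes were unequal. The windows lie on chromosome 1 and are read on the minus strand, 5′ to 3′. They are chr1:89065159-89065458 for GBP1, chr1:89022817-89023116 for GBP3 and chr1:89198893-89199192 for GBP4. Capitals mark matches to the ISRE core or the GAS element.
GBP1: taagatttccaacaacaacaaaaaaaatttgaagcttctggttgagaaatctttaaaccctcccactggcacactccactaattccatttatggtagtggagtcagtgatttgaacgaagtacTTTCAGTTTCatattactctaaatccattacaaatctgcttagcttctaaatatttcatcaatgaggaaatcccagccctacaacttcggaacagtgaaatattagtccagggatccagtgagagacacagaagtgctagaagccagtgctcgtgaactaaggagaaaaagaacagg
GBP3: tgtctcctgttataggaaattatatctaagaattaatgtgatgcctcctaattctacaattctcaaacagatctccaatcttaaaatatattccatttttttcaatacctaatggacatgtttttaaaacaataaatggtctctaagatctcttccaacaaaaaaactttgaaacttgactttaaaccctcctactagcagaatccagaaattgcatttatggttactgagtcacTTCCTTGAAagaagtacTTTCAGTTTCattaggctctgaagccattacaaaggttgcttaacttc
GBP4: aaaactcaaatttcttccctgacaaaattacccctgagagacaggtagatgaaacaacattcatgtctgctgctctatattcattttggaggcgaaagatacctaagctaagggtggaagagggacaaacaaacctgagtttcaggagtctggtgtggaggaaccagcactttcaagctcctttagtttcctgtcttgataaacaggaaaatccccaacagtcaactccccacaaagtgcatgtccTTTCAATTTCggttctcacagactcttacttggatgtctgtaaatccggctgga

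The ISRE core was searched as GAAA, any 2 bases and again GAAA, the GAS element as TTCNNNGAA and the AP-1 site as TGANTCA, all on both strands. Counting the start base as 0, the ISRE match lay at -127 to -118 in GBP1, at 2 to 11 in GBP3 and at -4 to 5 in GBP4. In GBP3 a GAS match at -15 to -7 and an AP-1 match at -23 to -17 lay beside it without overlap. The longest run shared by the GBP1 and GBP3 windows was 19 bases, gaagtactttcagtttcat, which contains the ISRE match of both. No other pair among the windows of GBP1, GBP3, GBP4, GBP6 and GBP7 shared a run over 13 bases. Of all 35116 promoter windows, 3.57% held the ISRE core, 7.66% the GAS element and 7.71% the AP-1 site. The windows of GBP6 and GBP7, relatives from the same cluster, held 0 matches to the ISRE core. A match describes letters in a window and was not tested as a binding site. Sites that depart from the searched letters were not looked for, so a window without a match may still hold one.

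**Figure D1:**
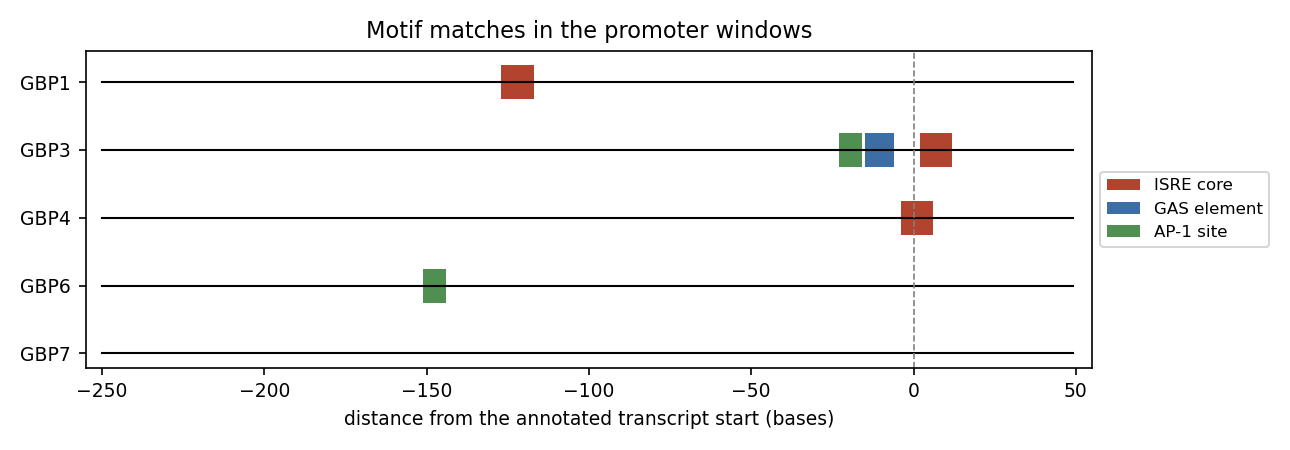
Positions of ISRE core (red), GAS element (blue) and AP-1 site (green) matches in the promoter windows of 5 GBP genes, on an axis of bases from the annotated transcript start (dashed line). GBP1, GBP3 and GBP4 each have 1 ISRE match, GBP3 also has the 1 match to the searched GAS letters, and GBP7 has no match. Sites with other letters were not searched.

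Every siHBO1 array had slightly fewer detected probes than every siCTRL array. Between 20546 and 21175 probes were detected on siHBO1 arrays, against 21262 to 21507 on siCTRL arrays, at a detection p under 0.05. KAT7, which encodes HBO1, was lower in siHBO1 cells, at 5.95 ± 0.35 normalised log2 intensity, against 7.82 ± 0.23 in siCTRL cells (SD, n = 3 each; limma adjusted p = 0.0187). All siHBO1 arrays lay below all siCTRL arrays, which in a two-sided exact permutation test gives p = 0.1, its minimum for groups of 3. The log2 difference of KAT7 was -1.87 (SE 0.20), and -0.74 without background correction. The KAT7 probe was detected on 2 of 3 siHBO1 and 3 of 3 siCTRL arrays. Its level in siHBO1 cells was thus near background, which limits the size of the difference. Leaving out siHBO1 replicate 1 or 2, or siCTRL replicate 2 or 3, raised the adjusted p of KAT7 above 0.05, to between 0.0595 and 0.0967. Of 8 epithelial and ovarian carcinoma markers, 7 were detected on all 6 arrays, and WT1 on 1 of 3 siHBO1 and 3 of 3 siCTRL arrays. In limma's test, MUC16 (log2 difference 1.33, adjusted p = 0.0243) and CD24 (0.94, adjusted p = 0.0187) rose among these markers. The leukocyte markers PTPRC, CD3E, LYZ and NKG7 were undetected on every array, while CD14, CD68 and ITGAM were detected on all 6. The summed intensity of the 7 leukocyte markers was 2844 to 3285 on siHBO1 arrays and 2663 to 3528 on siCTRL arrays. Of 6 endothelial markers, KDR, TEK and EMCN were undetected on every array, while PECAM1 and CDH5 were detected on all 6. The mean intensity of CDH5 was 747 on siHBO1 arrays and 783 on siCTRL arrays. The sum of the endothelial markers was 1787 to 2012 on siHBO1 arrays and 1705 to 2079 on siCTRL arrays. On the normalised log2 scale the mean of the endothelial markers did not overlap, at 6.10 to 6.24 on siHBO1 arrays and 5.82 to 6.02 on siCTRL arrays, and that of the leukocyte markers did, at 6.49 to 6.66 on siHBO1 arrays and 6.23 to 6.59 on siCTRL arrays. Among single markers the log2 difference of CD14 was 0.79 (limma adjusted p = 0.0989) and that of PECAM1 0.68 (adjusted p = 0.102), and VWF was detected on 2 of 3 siHBO1 and 0 of 3 siCTRL arrays. Of 6 fibroblast markers, COL3A1, LUM and PDGFRA were undetected on every array, while COL1A2 was detected on all 6. COL1A1 was detected on 2 of 3 siHBO1 and 3 of 3 siCTRL arrays, and DCN on 1 of 3 and 2 of 3. The sum of the fibroblast markers was 1278 to 1513 on siHBO1 arrays and 1358 to 1525 on siCTRL arrays. No leukocyte, endothelial or fibroblast marker passed limma's test, and the part of such cells in the results was not tested.

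GBP5 showed the greatest difference of the family after background correction, and a smaller one than either GBP1 probe without it. GBP5 is a prenylated, Golgi-associated member that, together with GBP2, is known to inhibit the protease furin. Its probe ILMN_2114568 read 7.03, 7.33 and 7.24 normalised log2 intensity on the siHBO1 arrays, against 5.68, 5.67 and 5.98 on the siCTRL arrays. Every siHBO1 array lay above every siCTRL array, by at least 1.05 on the log2 scale. The means were 7.20 ± 0.15 in siHBO1 cells and 5.78 ± 0.17 in siCTRL cells (SD, n = 3 each), a log2 difference of 1.42 (SE 0.13) or 2.68-fold. The control level of GBP5 was close to background. Its detection p-values were 0.0013, 0.0039 and 0.0013 on the siHBO1 arrays, against 0.062, 0.071 and 0.030 on the siCTRL arrays, so it was detected on 3 of 3 siHBO1 and 1 of 3 siCTRL arrays. The deposited intensities were 313, 321 and 349 on the siHBO1 arrays and 247, 249 and 243 on the siCTRL arrays. Without background correction the log2 difference of GBP5 was 0.48, and its groups were apart in the deposited intensities as well.

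GBP1, the best studied member and a farnesylated sensor that coats bacteria, was higher in siHBO1 cells on both of its probes. The brighter probe, ILMN_2148785, read 10.28, 10.16 and 9.99 normalised log2 intensity in siHBO1 cells, against 9.29, 9.14 and 9.14 in siCTRL cells. The second probe, ILMN_1701114, read 8.84, 9.11 and 8.93 in siHBO1 cells, against 8.12, 7.93 and 8.14 in siCTRL cells. On each probe the lowest siHBO1 array stood 0.70 above the highest siCTRL array on the log2 scale. The log2 differences were 0.96 (SE 0.11) on the brighter probe and 0.89 (SE 0.11) on the second, or 1.94-fold and 1.86-fold. Both probes were detected on all 6 arrays, with deposited intensities of 1207 to 1390 in siHBO1 cells and 715 to 865 in siCTRL cells on the brighter one. The 2 probes thus gave differences that were apart by less than the SE of either. Without background correction the second probe was at 0.59.

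GBP2, a prenylated member recruited to bacteria after GBP1, had higher readings in siHBO1 cells with a wide spread within both groups. Probe ILMN_1774077 read 8.28, 7.94 and 7.40 normalised log2 intensity on the siHBO1 arrays, against 7.37, 6.67 and 6.83 on the siCTRL arrays. The groups met almost edge to edge, with the lowest siHBO1 array 0.03 above the highest siCTRL array. The log2 difference was 0.92 (SE 0.26), or 1.89-fold, with a SD of 0.45 in siHBO1 cells and 0.37 in siCTRL cells (n = 3 each). Of all tested probes, 95.6% had a smaller SE. The probe was detected on all 6 arrays, and without background correction its difference was 0.44.

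GBP3 and GBP4, members that are not prenylated, gave small differences with overlapping groups. The GBP3 probe ILMN_1725314 read 7.09, 7.50 and 7.17 normalised log2 intensity in siHBO1 cells, against 7.11, 6.84 and 6.86 in siCTRL cells. Control replicate 1 thus lay inside the range of the siHBO1 arrays. The log2 difference of GBP3 was 0.31 (SE 0.14), and it was 0.13 without background correction and 0.19 without siHBO1 replicate 2. The GBP4 probe ILMN_1771385 read 5.91, 6.11 and 5.84 in siHBO1 cells, against 6.02, 5.37 and 6.26 in siCTRL cells, and the siCTRL arrays spanned both the lowest and the highest reading. Its log2 difference of 0.07 (SE 0.22) was smaller than its SE and changed sign without siHBO1 replicate 2 (-0.01) or siCTRL replicate 2 (-0.19). GBP4 was near background, detected on 3 of 3 siHBO1 and 2 of 3 siCTRL arrays.

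**Figure D2:**
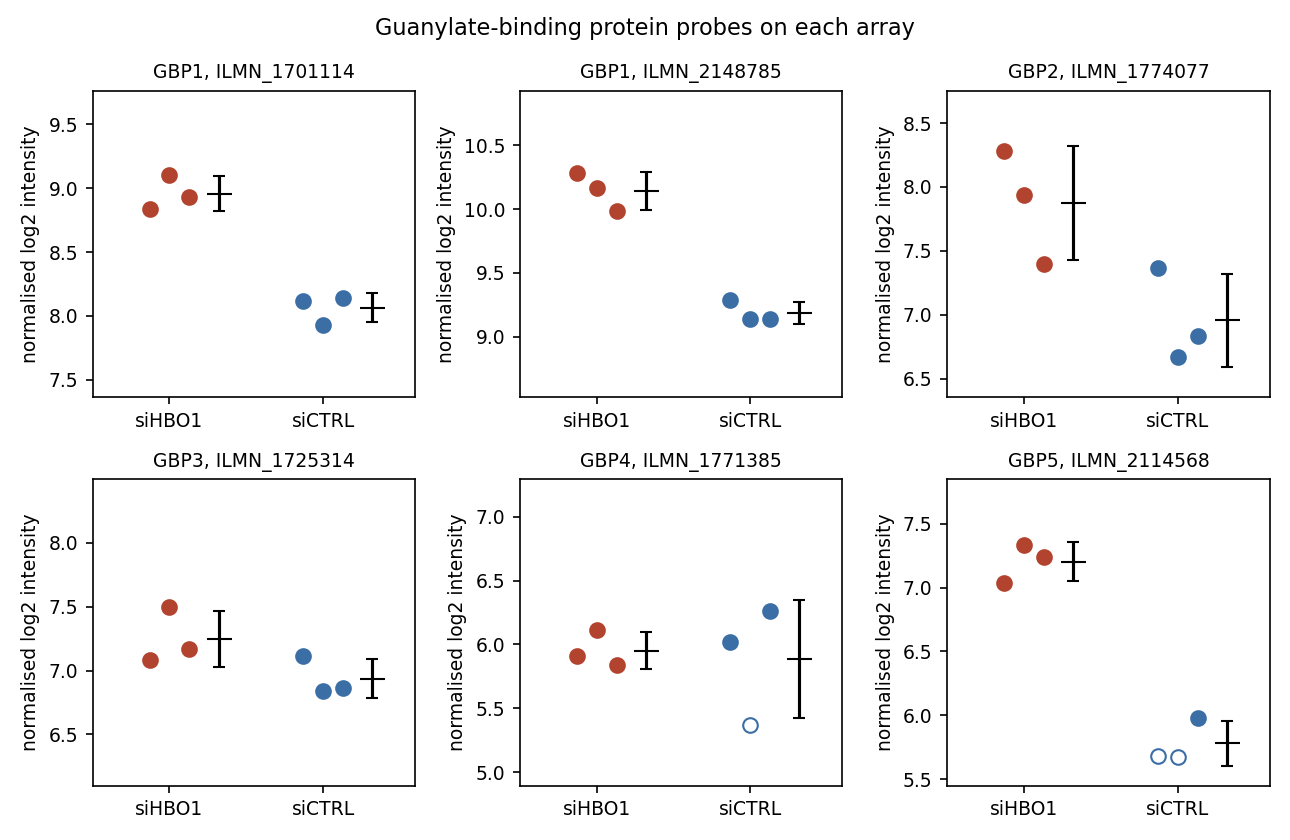
Normalised log2 intensity of the 6 probes of GBP1 to GBP5 on each array, siHBO1 (red) left of siCTRL (blue), with the mean and SD in black and open circles for arrays where the probe was not detected at p under 0.05. Every panel spans the same number of log2 units around its own centre, and the groups are apart for GBP5, GBP1 and, narrowly, GBP2, and overlap for GBP3 and GBP4.

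Set side by side, the family ran from 1.42 for GBP5 through 0.96 and 0.89 for the GBP1 probes and 0.92 for GBP2 to 0.31 for GBP3 and 0.07 for GBP4, as log2 differences. Without background correction the order was 0.77 and 0.59 for the GBP1 probes, 0.48 for GBP5, 0.44 for GBP2, 0.13 for GBP3 and 0.02 for GBP4. All 6 probes were tested, and all 6 differences were positive. The median of the 6 probes was 0.91, where the median was -0.006 over all tested probes and 0.01 over all 12227 tested genes. The log2 differences of GBP2 and of either GBP1 probe were apart by less than the SE of each. The probes whose groups did not overlap with siHBO1 higher were 4 of 6, against 13.3% of all tested probes. Those past an adjusted p of 0.05 in limma's test were 3 of 6, both GBP1 probes and GBP5, against 1.47% of all tested probes called higher and 2.73% called in either direction. Over all probes, 314 were called higher and 268 lower, and with median scaling in place of quantile normalisation 235 were called higher and 379 lower. Since the family was picked from this contrast, nothing is read from these counts. The called probes were 0 of 6 without siHBO1 replicate 1 or 2, or without siCTRL replicate 2 or 3.

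**Figure D3:**
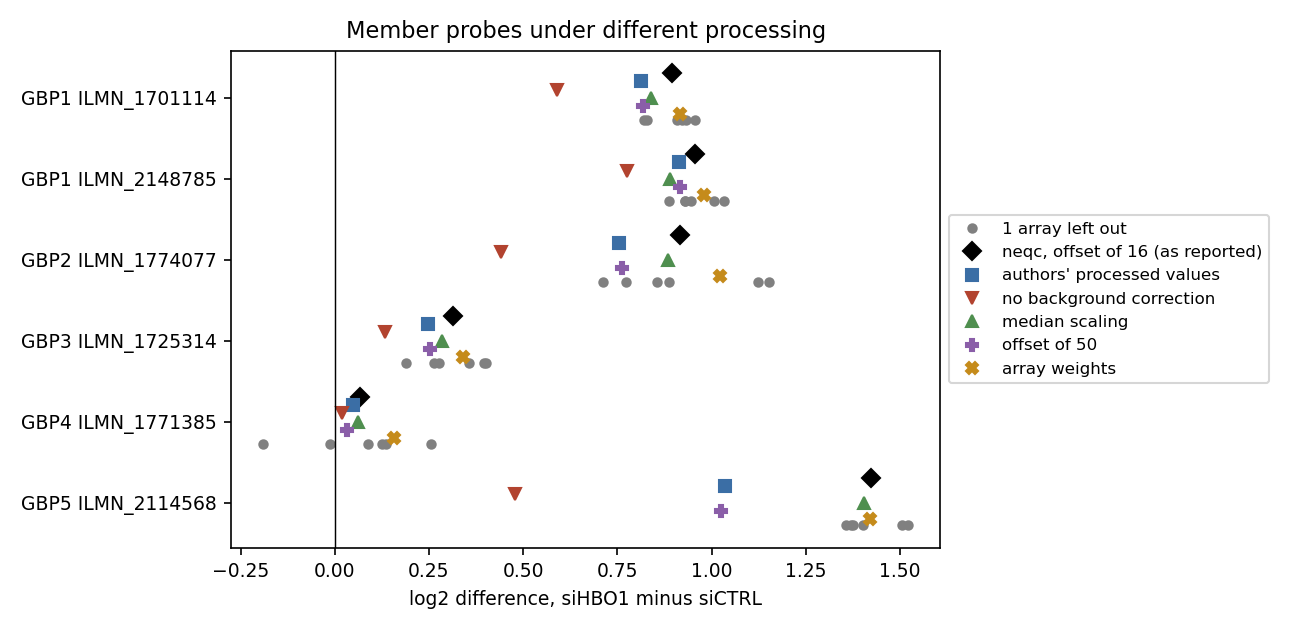
Log2 difference, siHBO1 minus siCTRL, of each GBP probe as reported (black diamonds), under 5 other ways of processing (coloured symbols) and with 1 array left out (grey dots). GBP5 moves most, from 1.42 to 0.48 without background correction, and GBP4 lies on both sides of 0 when 1 array is left out.

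Within groups the members did not share 1 order of arrays. After removal of the group means, all 6 probes stood above their mean on siHBO1 replicate 2 and 1 of 6 on siHBO1 replicate 3. Among siCTRL arrays, 5 of 6 stood above on replicate 1, 3 of 6 on replicate 3 and 0 of 6 on replicate 2. The mean deviation of the 6 probes ran from -0.14 to 0.13 on the siHBO1 arrays and from -0.20 to 0.13 on the siCTRL arrays, on the log2 scale. The median deviation of all tested probes was between -0.01 and 0.01 on each array. On the siHBO1 arrays GBP2 deviated by 0.41 on replicate 1 and by -0.47 on replicate 3, whereas GBP5 stood at -0.17 and 0.04 on the same arrays. On the siCTRL arrays GBP4 deviated by -0.51 on replicate 2.

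The likeness of 2 profiles was measured as the root mean square difference of their centred log2 intensities over the 6 arrays, where a smaller value means a more similar profile. The 2 GBP1 probes were 0.148 apart. From the brighter GBP1 probe, GBP2 stood at 0.237, GBP5 at 0.310, GBP3 at 0.359 and GBP4 at 0.522, and the widest gap in the family was 0.712, between GBP5 and GBP4. Among the other 12226 genes, the nearest to GBP1 were GMPR, a GMP reductase (0.0497), TRIM2, a ubiquitin ligase (0.0631), CTDSP2, a phosphatase (0.0636), SIDT2, a lysosomal membrane protein (0.0680), and PLEKHG1 (0.0737). The nearest to GBP5 were KLHL24, an adaptor of ubiquitin ligases (0.138), KCNK12, a potassium channel (0.150), LBH, a transcription cofactor (0.162), ALPL, the tissue-nonspecific alkaline phosphatase (0.184), and RASD2, a Ras-like GTPase (0.187). These genes were picked for their likeness, so their own differences are no further finding. RASD2 was detected on 3 of 3 siHBO1 and 0 of 3 siCTRL arrays, so its likeness to GBP5 rests in part on control values near background. The choice of neighbours was unsteady. With the authors' processed values, without background correction or with an offset of 50, 0 of the 5 genes nearest to GBP5 were kept. Of the 5 nearest to GBP1, 1 was kept without background correction.

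The pathway that leads to guanylate-binding proteins was followed from ligand to target. All 13 listed interferon genes, IFNB1, IFNG and IFNL1 among them, were undetected on all 6 arrays on each of their 18 probes. Interferon genes outside this list were not examined. The interferon receptor subunits were all detected, and 0 of 6 passed limma's test, where 1.91% of all tested genes were called higher and 1.28% lower. At those shares a count of 0 in this list and in the next lists is near the background. Their log2 differences ran from 0.15 to 0.36, the highest being IFNLR1, the specific chain of the interferon-lambda receptor (0.36, SE 0.13), and IL10RB, its partner chain (0.25, SE 0.13). A second IL10RB probe was at 0.01. Among JAK kinases, STATs and IRFs, 0 of 9 tested genes passed, with a median of 0.24. IRF9, the DNA-binding subunit of the interferon-stimulated gene factor complex, was at 0.61 (SE 0.12, limma adjusted p = 0.0511), and IRF7, which drives type I interferon genes, was at 0.53 (SE 0.15, adjusted p = 0.109). A second IRF7 probe was at 0.23 (SE 0.23). Over 15 alternatives IRF9 lay between 0.51 and 0.68 and passed under 6. Among brakes of the pathway 0 of 10 passed, with a median of 0.06. USP18, which removes ISG15 and blocks the type I receptor, was at 0.46 (SE 0.16), and IRF2BP1, a corepressor of IRF2, at 0.41 (SE 0.09).

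Of other interferon-inducible genes, 5 rose, 0 fell and most were not called. The interferon-gamma list had 36 genes with a probe, of which 28 were tested and 27 not called. The type I list had 35, of which 32 were tested and 28 not called. Log2 differences of tested genes ran from -0.57 to 0.76 in the interferon-gamma list and from -0.17 to 1.03 in the type I list. The share called higher was 3.57% of the tested interferon-gamma list and 12.5% of the tested type I interferon list, against 1.91% of all 12227 tested genes, of which 1.28% were called lower. In the interferon-gamma list, 1 of 28 tested genes rose, CXCL10, a T cell attracting chemokine. CXCL10 read 6.99, 7.09 and 7.42 normalised log2 intensity in siHBO1 cells, against 6.21, 6.52 and 6.50 in siCTRL cells, a log2 difference of 0.76 (SE 0.15, limma adjusted p = 0.0487). The median of that list was 0.19, and 22 of its 28 tested genes had a positive difference, where 51.8% of all tested genes did. In the type I interferon list 4 of 32 tested genes rose. OAS2, an antiviral enzyme activated by double-stranded RNA, stood at 1.03 (SE 0.11, adjusted p = 0.0187), and OASL, its catalytically inactive relative, at 0.69 (SE 0.13, adjusted p = 0.0435). IFIT1 and IFIT2, antiviral proteins that act on viral RNA and translation, stood at 0.87 (SE 0.16, adjusted p = 0.0402) and 0.68 (SE 0.11, adjusted p = 0.0341). The median of that list was 0.22, and 30 of 32 differences were positive. Since interferon genes were already known to be higher in these arrays, the lists are not independent evidence of a direction.

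The calls outside the family depended on single arrays more than the differences did. Of the listed genes, 0 were called without siHBO1 replicate 1 or 2 or siCTRL replicate 2 or 3, 2 without siHBO1 replicate 3 and 1 without siCTRL replicate 1. In the 4 settings with 0 listed genes, 1 to 6 of all tested probes were called. With 1 array left out the log2 differences ran from 0.95 to 1.09 for OAS2, 0.76 to 1.03 for IFIT1, 0.59 to 0.72 for IFIT2, 0.61 to 0.79 for OASL and 0.63 to 0.85 for CXCL10. Without background correction CXCL10 was at 0.28, OAS2 at 0.44, IFIT1 at 0.42, IFIT2 at 0.38 and OASL at 0.24, and in that setting 20 of the 115 listed genes were called. The promoter windows of the type I list held the ISRE core in 26 of 38 windows and those of the interferon-gamma list in 18 of 32. In the windows of the genes beside the GBP cluster the ISRE core was found in 0 of 12. Of all promoter windows 3.57% held it, so 0 of 12 is near the background.

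Among relatives, modifying enzymes and partners of guanylate-binding proteins 0 genes passed the test on all arrays, a count that the 1.91% of genes called higher and 1.28% called lower make unremarkable for lists this short. GBP6 and GBP7, and the pseudogene GBP1P1, were undetected on all 6 arrays, so no difference is given for them. MX1, an interferon-induced dynamin-like GTPase, was at 0.58 (SE 0.12, limma adjusted p = 0.0531). ATL1, an atlastin that fuses endoplasmic reticulum membranes and belongs to the same superfamily, was at 0.77 (SE 0.18, adjusted p = 0.0707), with 3 other probes between 0.41 and 0.78. Of 8 prenylation enzymes 0 passed, with a median of -0.001. PGGT1B, the catalytic subunit of the type I geranylgeranyl transferase, was at -0.37 (SE 0.11), with 2 further probes at -0.64 and -0.004, and ZMPSTE24, a CAAX protease, was at -0.21 (SE 0.15). Of 10 tested partners and effectors 0 passed, with a median of 0.02. NLRP3, an inflammasome sensor, was at -0.66 (SE 0.16, adjusted p = 0.0737), with 2 further probes at -0.61 and -0.47, and PYCARD, the inflammasome adaptor, was at 0.32 (SE 0.18). MX1, ATL1 and NLRP3 each passed under 6 of 15 alternatives, with adjusted p-values over all of them of 0.00991 to 0.175 for MX1, 0.0132 to 0.207 for ATL1 and 0.0147 to 0.195 for NLRP3.

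**Figure D4:**
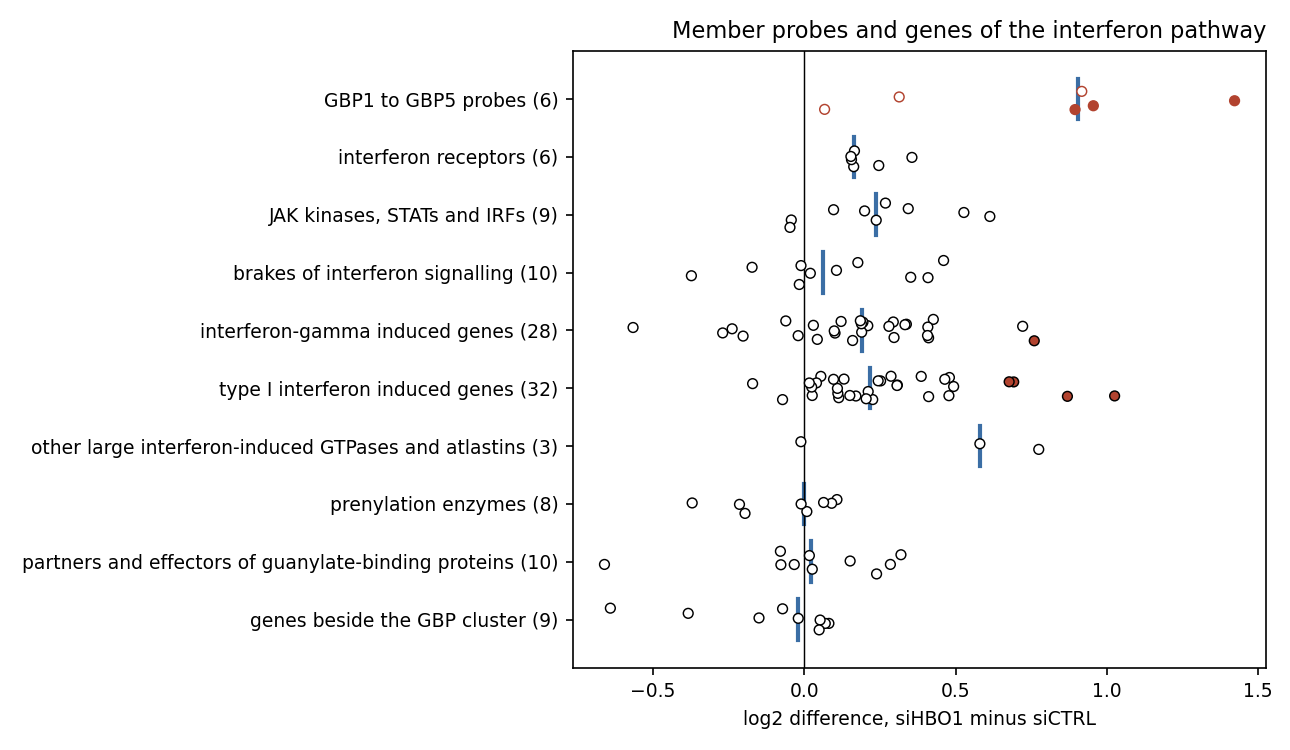
Log2 difference, siHBO1 minus siCTRL, of the 6 GBP probes and of each tested gene of 9 lists, with the number of points in brackets. Filled points passed an adjusted p of 0.05 in limma's test and blue bars are medians, 0.91 for the GBP probes and 0.22 for the type I interferon list; the GBP row was chosen from this contrast and is a description.

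The 7 GBP genes lie together on chromosome 1. In the RefSeq table the protein-coding genes follow each other as GBP3, GBP1, GBP2, GBP7, GBP4, GBP5 and GBP6, with only noncoding genes and pseudogenes between them. The order of the differences did not follow the order of the genes: GBP4, at 0.07, lies between GBP7, which was undetected, and GBP5, at 1.42. Of 9 tested genes beside the cluster, 0 rose and 0 fell in limma's test, where 1.91% of all tested genes were called higher and 1.28% lower, so that 0 of 9 is near the background. Their median was -0.02. PKN2, GTF2B and KYAT3, on the GBP3 side, were at -0.07, -0.02 and 0.08. RBMXL1, next to GBP3, was at -0.38 (SE 0.10, limma adjusted p = 0.0895). LRRC8B and LRRC8D, channel subunits on the far side, were at 0.07 and 0.05, and LRRC8C between them was at -0.64 (SE 0.35) with overlapping groups. ZNF326 was at -0.15 and ZNF644 at 0.05, and BARHL2 was detected on 1 of 3 siHBO1 and 0 of 3 siCTRL arrays and was not tested.

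**Figure D5:**
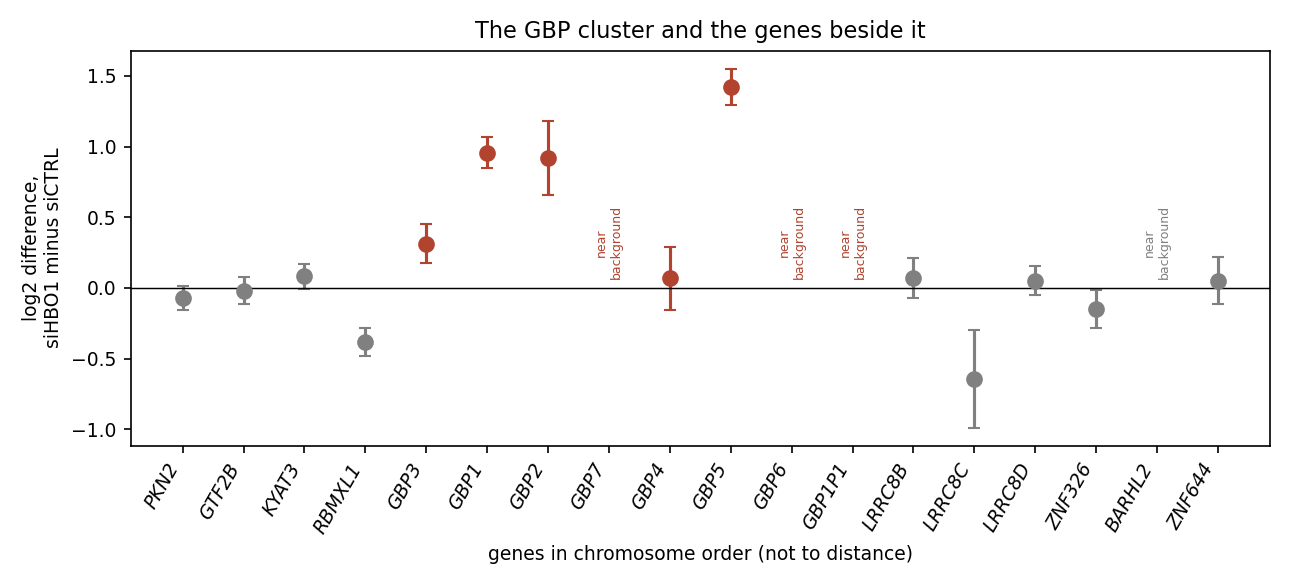
Log2 difference, siHBO1 minus siCTRL, with its SE, of GBP genes (red) and their neighbours (grey) in chromosome order, GBP1 by its brighter probe; genes detected on fewer than 3 of 6 arrays carry no point. The neighbours lie between -0.64 and 0.08, GBP4 (0.07) lies within that range, GBP3 is at 0.31, and GBP1, GBP2 and GBP5 lie between 0.92 and 1.42.

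The GBP genes are paralogs of similar sequence. Probe sequences were not used here, so hybridisation of a probe to another member was not examined, and levels were not compared between genes. On bulk arrays, a change in RNA per cell cannot be told apart from a change in the share of cells that express a gene.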

How the data were processed

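RNA from 6 samples of UWB1.289 cells, 3 siHBO1 and 3 siCTRL, was measured on Illumina bead arrays. Per the file headers, the deposited table pairs, for every array, a probe's average bead intensity with its detection p-value; it was taken as not normalised, since array medians differ. The submitters' processing notes name GenomeStudio and lumi. A second deposited table holds the authors' processed values, taken as log2 intensity with a shared distribution; background handling is not given in the sources used here. Each of its columns tracked its own array (correlation of deviations at least 0.99, against at most 0.28 for another array), so the table was used as 1 of the alternatives.

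Background correction and quantile normalisation were done with neqc (limma 3.58.1, R 4.3.3, statmod 1.5.0; offset 16), where the detection p-values stood in for negative control probes. Probes with a detection p under 0.05 on at least 3 of 6 arrays were tested (21333 of 47316). Of all probes, 30109 carried 1 gene symbol, 8 several and 17199 none, in the supplied platform annotation; 30070 symbols were looked up by Entrez ID in the RefSeq table of GRCh38.p14. A gene outside the family was represented by its brightest tested probe. lmFit and eBayes compared siHBO1 with siCTRL without covariates, with Benjamini-Hochberg adjustment across every tested probe. SEs are limma's moderated ones. The number of arrays limits the precision. The fit was tested on simulated data.

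The members and lists were chosen with earlier results of these data known. Named genes were the members, their relatives, KAT7, and up to 4 called genes per list or else the 2 with the largest difference. The listed interferon genes and cluster neighbours, and the 5 profiles nearest to GBP1 and GBP5, could also be named.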

Additional observations from a re-analysis of the deposited data

How the results depend on the processing

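Of the alternatives, 11 recompute a difference and the others change only the test. Over those 11 the GBP1, GBP2, GBP3 and GBP5 differences were all positive, and that of GBP4 in 9. GBP4 and GBP5 did not enter the test with a detection p under 0.01 on all 6 arrays. Without background correction the log2 differences were 0.59 and 0.77 for GBP1 (ILMN_1701114 and ILMN_2148785), 0.44 for GBP2 and 0.48 for GBP5; GBP5 was at 1.03 with the authors' processed values and 1.03 with an offset of 50. Leaving out 1 array gave 0.82 to 0.96 and 0.89 to 1.03 for the GBP1 probes, 0.71 to 1.15 for GBP2, 0.19 to 0.40 for GBP3, -0.19 to 0.26 for GBP4, 1.36 to 1.52 for GBP5 and -2.04 to -1.69 for KAT7. GBP probes called were then 0 to 3, listed genes called 0 to 2, and all probes called 1 to 268, against 3, 5 and 582 on all arrays. Probes called in all were 979 with the authors' values, 1811 without background correction, 1020 with an offset of 50, 247 without a detection filter, 1136 with a detection p under 0.01 on all 6 arrays, 1886 with a trended and robust prior, 913 with array weights and 1665 at an adjusted p under 0.10. Listed genes called were, in the same settings, 10, 20, 11, 1, 11, 20, 8 and 16, and they were 3 with median scaling and 11 when a gene's probes were averaged. With the replicate number as a block, 282 probes, 1 listed gene and 2 GBP probes were called. The main fit did not take the numbers as pairs, since the labels give no batch. The deviations of same-numbered arrays correlated at 0.26, -0.02 and 0.22, and 2 of the 3 correlated best with their own number. Whether same-numbered arrays shared a batch was not tested. Of the 5 genes nearest to GBP1, 1 was kept without background correction and 2 to 4 with 1 array left out; for GBP5, 0 were kept with the authors' values, without background correction and with an offset of 50, and 1 to 4 with 1 array left out. The cause of these movements was not tested. The alternatives for KAT7 and for the nearest genes were added after the data were seen. GBP4, GBP5 in siCTRL cells and KAT7 in siHBO1 cells lay near background, which limits their folds.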
